A study of Homo sapiens with 9 samples.

Results

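ATF4 is the transcription factor at the centre of the integrated stress response, and the unfolded protein response is the programme that cells run when proteins misfold in the endoplasmic reticulum (ER). The genes described here are 47 gene symbols taken from these programmes and looked up by name in a count table of 61209 genes. Of these, 33 form an ATF4 arm (ATF4, its partners and its targets in amino acid synthesis, amino acid transport and tRNA charging) and 14 an ER arm (the stress sensors, XBP1 and the chaperone and degradation genes downstream of XBP1 and ATF6). All 47 passed the filter on low counts, which kept 16976 genes. RNA was sequenced in bulk from T1 (GIST-T1), 1 human gastrointestinal stromal tumor (GIST) cell line with a deletion in KIT exon 11 (del560-79), to compare loss of the nuclear receptor ERRα with inhibition of KIT. There were 3 groups of 3 libraries. The siNC cells received a non-target siRNA, the siERRα cells an siRNA against ESRRA, the gene of ERRα, and the imatinib cells the non-target siRNA together with 50 nM imatinib, a drug that blocks the KIT kinase. Every group was transfected and was harvested at 48 h. Both comparisons with siNC use the same 3 control libraries, and knockdown combined with imatinib was not analysed here.

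When amino acids run short or misfolded proteins load the ER, kinases phosphorylate the initiation factor eIF2α, which slows translation in general while the ATF4 message is translated more. ATF4 then turns on genes that make, import and charge amino acids, and, under lasting stress, DDIT3 (CHOP) and other factors linked to cell death. In the ER the sensors are PERK, which is one of the eIF2α kinases, IRE1, which splices XBP1 RNA, and ATF6, which is cut to release a transcription factor. XBP1 and ATF6 raise ER chaperones and the genes of ER-associated degradation (ERAD). Counts per gene show RNA levels only, so neither ATF4 translation nor XBP1 splicing was measured here.

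The libraries held 37527236 to 49363002 counts. ESRRA stood at 40.7, 44.7 and 40.9 CPM in siNC, 1.40, 0.757 and 1.34 CPM in siERRα and 30.4, 31.99 and 35.6 CPM with imatinib, so the knockdown was present in all 3 siERRα libraries (log2 fold change −5.18, SE 0.134, adjusted p = 6.28e-15). ESRRA was also called lower with imatinib, by much less (log2 fold change −0.37, adjusted p = 0.00383). CPM is the gene's counts scaled to the library size after normalization, and all p-values, adjusted over the 16976 genes, are from edgeR's quasi-likelihood test. Whether the 3 libraries of each group are separate cultures is not stated, and the p-values cover only the spread among them. SE is the standard error of a log2 fold change. The GIST markers KIT, ANO1, ETV1, CD34 and PRKCQ were present in every library, with a summed level of 3202 to 3564 CPM. The 5 leukocyte markers summed to at most 1.05 CPM and the 4 endothelial markers to at most 3.04 CPM. Of the epithelial markers, which summed to 302 to 315 CPM in siNC, 280 to 303 CPM in siERRα and 193 to 223 CPM with imatinib, nearly all signal was the keratin KRT18. Genes encoded by mitochondrial DNA took 0.846% to 1.03% of the counts in siNC and siERRα and 1.48% to 1.54% with imatinib. The part of these 2 shifts in the results was not tested. In bulk samples, fewer expressing cells and less RNA per cell cannot be told apart.

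Per kilobase of exon, over all annotated exons of a gene, the ER chaperone genes CALR, HSPA5 and PDIA4 were among the highest of the 47. Others of their role ranked lower, with DNAJB9 at 18 and SDF2L1 at 20. The ranks depend on this length, which can far exceed the canonical transcript (13092 against 2782 bases for HSP90B1). CALR averaged 618 CPM per kb in siNC, HSPA5 259, the glutamine transporter gene SLC1A5 183 and PDIA4 175. ATF4 itself ranked 10 with 56.5 CPM per kb. The stress-induced factors DDIT3 and ATF3 were far lower, at 9.78 and 8.17 CPM per kb. At the low end stood CTH, STC2, ERN1, VLDLR, CBS and ASNS, with 1.46 down to 0.201 CPM per kb. The level of ASNS, asparagine synthetase, cannot be read from this table. In the GENCODE 44 annotation, 99.5% of the 2385 bases of its canonical transcript lie in exons of a readthrough RNA on the same strand, and reads that fit both genes may have been left uncounted. The gene had 0.982 ± 0.0215 CPM in siNC (SD, n = 3).

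**Figure D1:**
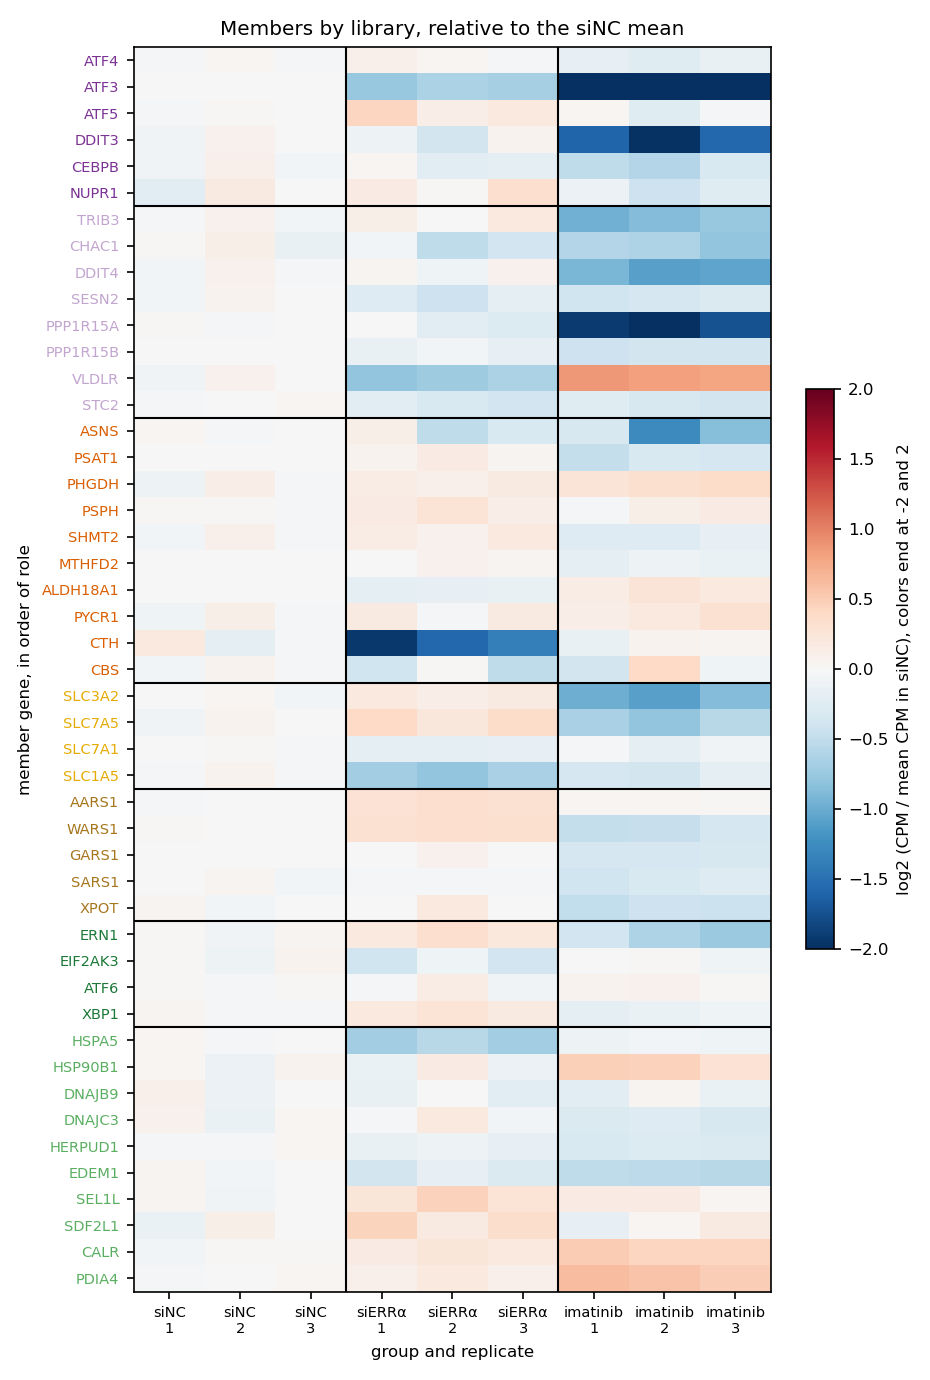
Level of the 47 genes in each of the 9 libraries, as log2 of CPM over the mean CPM in siNC, in rows ordered by role and with the gene names colored by role. Blue is below and red above the siNC mean, and the color scale ends at −2 and 2. The 3 imatinib columns are blue for ATF3, DDIT3, PPP1R15A, DDIT4, TRIB3 and SLC3A2, whereas the siERRα columns are blue for CTH, ATF3, VLDLR, SLC1A5 and HSPA5.

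After ERRα knockdown the ATF4 and unfolded protein response genes moved in both directions, with small changes for most. At an adjusted p under 0.05, 10 of the 47 were lower and 10 higher than in siNC, where 12.6% of all genes tested were lower and 11.4% higher (23.9% called in all). As shares of the 47 these were 21.3% in each direction. The median log2 fold change of the 47 was 0.02, against 0.01 for all genes. Genes that fell by at least 0.5 on the log2 scale numbered 5, namely CTH, VLDLR, SLC1A5, ATF3 and HSPA5, and the highest value of the 47 was 0.33. Among all genes, 5.28% fell and 1.98% rose past that size. Both arms were mixed, with 7 lower and 6 higher among the 33 of the ATF4 arm and 3 lower and 4 higher among the 14 of the ER arm. The count of 10 higher dropped to 5 without siNC replicate 1 and to 6 without siNC replicate 3, siERRα replicate 1 or siERRα replicate 3.

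With imatinib the ATF4 arm was mostly lower and the ER arm was split. Of the 47 genes, 26 were lower and 7 higher than in siNC, or 55.3% and 14.9%, where 20.3% of all genes tested were lower and 21.4% higher (41.7% called in all). In the ATF4 arm, 22 of 33 fell and 4 rose, with a median log2 fold change of −0.32, while the median of all genes was 0.00. In the ER arm, 4 of 14 fell and 3 rose, with a median of −0.05. Falls of at least 0.5 were found for 11 of the 47 and rises of that size for 2, VLDLR and PDIA4. The 26, the 22 and these 11 all include ASNS, which is subject to the overlap given above. Among all genes, 7.02% fell and 10.6% rose past that size. The groups did not overlap for 29 genes that were lower and 8 that were higher with imatinib, beside 25.8% and 26.2% of all genes.

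**Figure D2:**
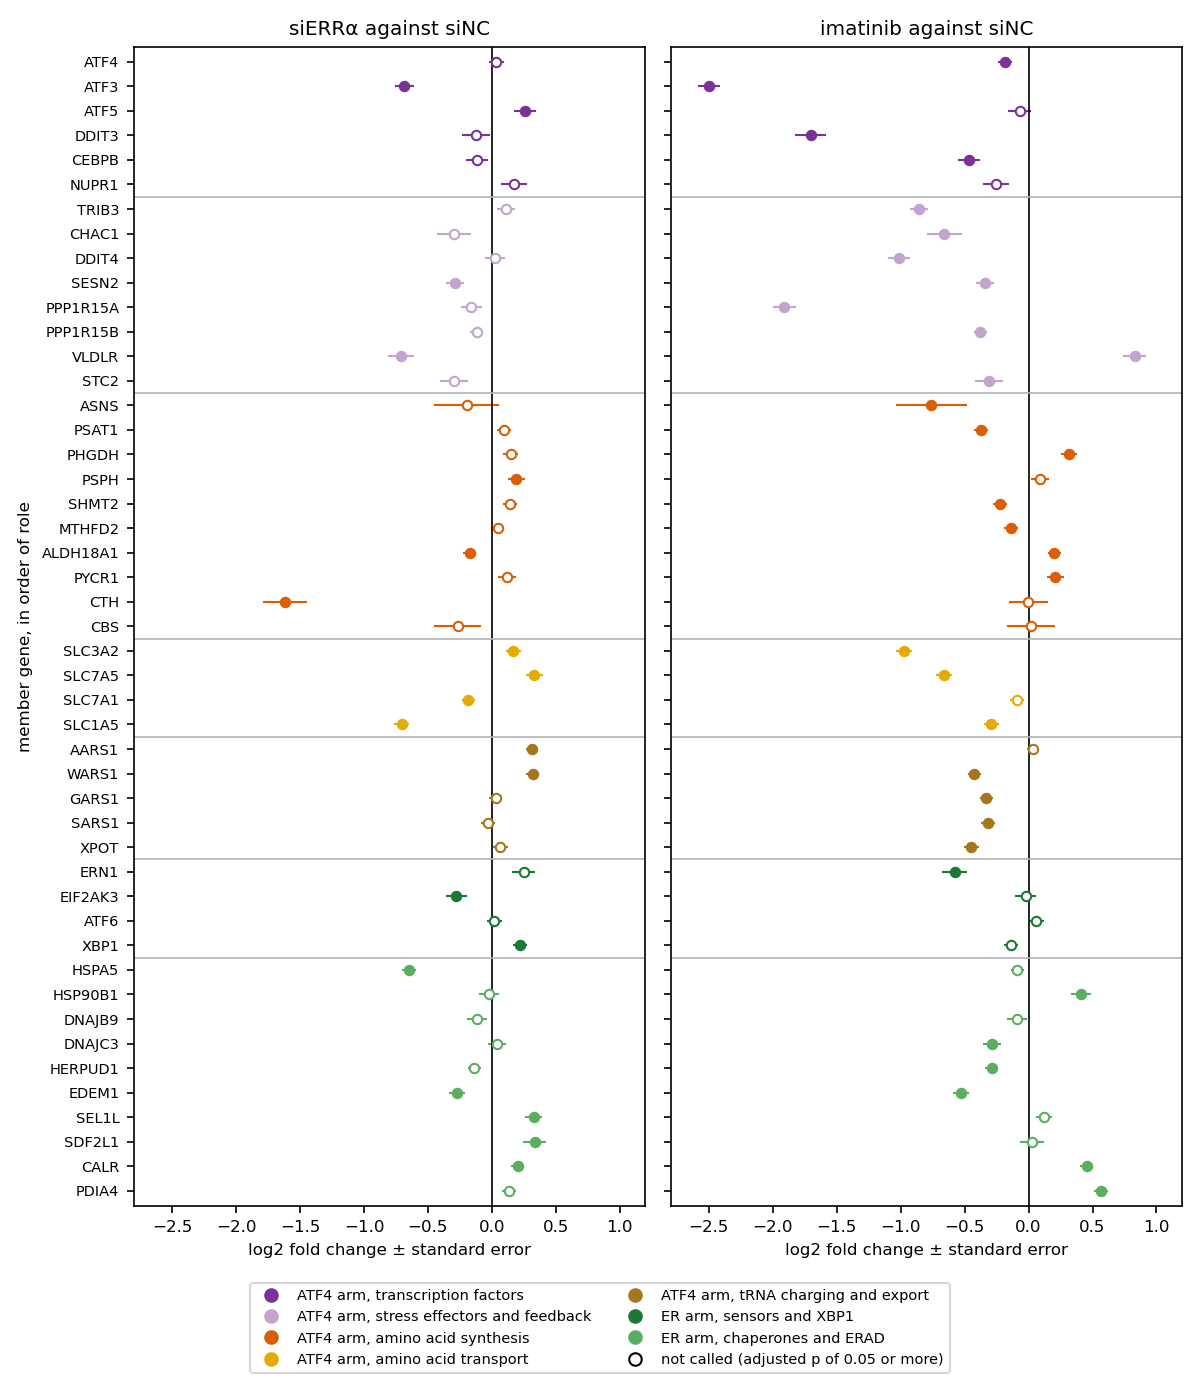
Log2 fold change of each gene (x axis) with its standard error, for siERRα against siNC on the left and imatinib against siNC on the right, in rows by role. Filled circles passed an adjusted p of 0.05. On the left most genes lie within 0.35 of 0, with CTH at −1.62, and on the right ATF3, PPP1R15A and DDIT3 reach −2.50, −1.91 and −1.71.

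Of the 6 transcription factors of the ATF4 arm, 4 fell with imatinib, ATF4 by the least of these and ATF3 by the most, and ATF5 and NUPR1 did not pass. ATF4 RNA (chromosome 22, 39519695 to 39522683) stood at 145, 152 and 146 CPM in siNC, 158, 151 and 145 CPM in siERRα and 131, 125 and 133 CPM with imatinib. All imatinib libraries lay under all siNC libraries, while siERRα and siNC overlapped. Its log2 fold change was −0.19 (SE 0.0554, adjusted p = 0.0106) with imatinib and 0.04 (SE 0.0551, adjusted p = 0.699) after knockdown.

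ATF3, a bZIP repressor and activator induced by many stresses (chromosome 1, 212565334 to 212620777), stood at 32.9, 32.4 and 32.6 CPM in siNC, 19.3, 21.1 and 20.6 CPM in siERRα and 5.15, 5.74 and 6.39 CPM with imatinib. The 3 groups did not overlap, with siNC highest and imatinib lowest. It fell to 17.6% of siNC with imatinib (log2 fold change −2.50, SE 0.0862, adjusted p = 1.74e-13) and to 62.3% after knockdown (log2 fold change −0.68, SE 0.0756, adjusted p = 2.13e-06). DDIT3, which encodes CHOP, stood at 12.1, 13.5 and 12.7 CPM in siNC, 11.97, 9.91 and 13.4 CPM in siERRα and 4.20, 3.26 and 4.29 CPM with imatinib. Every imatinib library was under every other library, whereas 1 siERRα library lay within the siNC range and the other two under it. The log2 fold change was −1.71 (SE 0.124, adjusted p = 3.23e-09) with imatinib and −0.12 (SE 0.11, adjusted p = 0.461) after knockdown. In the annotation, 27.2% of the DDIT3 exon bases lie opposite exons of MARS1, which fell with imatinib by 0.28 on the log2 scale, and the strand setting of the counting is not given.

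CEBPB, a bZIP partner of ATF4, fell with imatinib (log2 fold change −0.47, SE 0.0873, adjusted p = 0.000273) and gave −0.12 (SE 0.0855, adjusted p = 0.353) after knockdown. ATF5, a close relative of ATF4, averaged 21.3 ± 0.391 CPM in siNC, 25.5 ± 2.95 CPM in siERRα and 20.3 ± 1.99 CPM with imatinib (SD, n = 3 each). It was higher after knockdown (log2 fold change 0.26, SE 0.0875, adjusted p = 0.0368), but this call was lost without siNC replicate 1, 2 or 3, siERRα replicate 1 or 3 or imatinib replicate 3, with an adjusted p of 0.0592 to 0.239. In the annotation, 19.5% of the ATF5 exon bases lie opposite exons of NUP62. NUPR1, a small stress-induced regulator of transcription, passed the test against siNC neither with imatinib (log2 fold change −0.26, SE 0.103, adjusted p = 0.054) nor after knockdown (log2 fold change 0.18, SE 0.101, adjusted p = 0.235). Its imatinib value did pass without siNC replicate 1, siERRα replicate 2 or 3 or imatinib replicate 1, with an adjusted p of 0.00945 to 0.0496. NUPR1 also passed under the DESeq2 Wald test (adjusted p = 0.041) and with no filter on low counts (adjusted p = 0.00933). The same held for a fit of the 6 libraries compared and for thinned counts (adjusted p = 0.035 in each).

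All 8 stress effectors changed with imatinib, with 7 lower and 1 higher, while after knockdown 2 were lower and 6 did not pass. PPP1R15A (GADD34), the stress-induced subunit that directs protein phosphatase 1 to eIF2α, stood at 43.4, 41.8 and 43.03 CPM in siNC, 42.7, 36.4 and 35.4 CPM in siERRα and 11.3, 10.02 and 12.7 CPM with imatinib. The imatinib libraries lay far under the others, at 26.6% of siNC on average, and 1 siERRα library was within the siNC range. PPP1R15A gave a log2 change of −1.91 (SE 0.0903, adjusted p = 1.25e-11) with imatinib and −0.16 (SE 0.0822, adjusted p = 0.169) after knockdown, and the latter passed without siERRα replicate 1 (log2 fold change −0.25, adjusted p = 0.0483). Its constitutive counterpart PPP1R15B fell less with imatinib (log2 fold change −0.38, SE 0.0517, adjusted p = 9.16e-06). After knockdown PPP1R15B was not called (log2 fold change −0.12, SE 0.0515, adjusted p = 0.108), although it passed without siERRα replicate 2 (adjusted p = 0.0303).

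TRIB3, a pseudokinase that restrains ATF4 and AKT, stood at 79.7, 85.5 and 77.7 CPM in siNC, 88.2, 80.9 and 93.04 CPM in siERRα and 41.5, 44.4 and 47.96 CPM with imatinib. DDIT4 (REDD1), an inhibitor of mTORC1, stood at 21.5, 23.8 and 21.9 CPM in siNC, 23.4, 21.1 and 23.9 CPM in siERRα and 11.9, 10.5 and 10.8 CPM with imatinib. For both genes every imatinib library was under every siNC and siERRα library, and siERRα overlapped siNC. With imatinib TRIB3 fell by 0.86 and DDIT4 by 1.01 on the log2 scale, and after knockdown their log2 fold changes were 0.11 (adjusted p = 0.276) and 0.02 (adjusted p = 0.866).

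CHAC1, which breaks down glutathione, fell with imatinib (log2 fold change −0.66, SE 0.137, adjusted p = 0.000709). It gave a log2 change of −0.30 (SE 0.131, adjusted p = 0.111) after knockdown, which passed only without siERRα replicate 1 among the libraries left out (adjusted p = 0.032). SESN2 (sestrin 2), a leucine sensor upstream of mTORC1, was lower in both, with log2 fold changes of −0.29 after knockdown and −0.34 with imatinib (adjusted p of 0.00469 and 0.000684). VLDLR, a lipoprotein receptor, stood at 6.26, 6.999 and 6.57 CPM in siNC, 3.82, 4.06 and 4.25 CPM in siERRα and 12.1, 11.7 and 11.5 CPM with imatinib. The groups did not overlap and imatinib was on the other side of siNC from siERRα. VLDLR fell after knockdown (log2 fold change −0.71, SE 0.1, adjusted p = 3.35e-05) and rose with imatinib (log2 fold change 0.83, SE 0.093, adjusted p = 8.4e-07). STC2, a secreted glycoprotein, gave a log2 change of −0.31 (SE 0.111, adjusted p = 0.0309) with imatinib, and this call was lost without siNC replicate 1, 2 or 3 or imatinib replicate 2 or 3 (adjusted p of 0.0573 to 0.107). After knockdown STC2 gave a log2 change of −0.30 (SE 0.108, adjusted p = 0.053), which passed without imatinib replicate 1 (adjusted p = 0.0474).

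**Figure D3:**
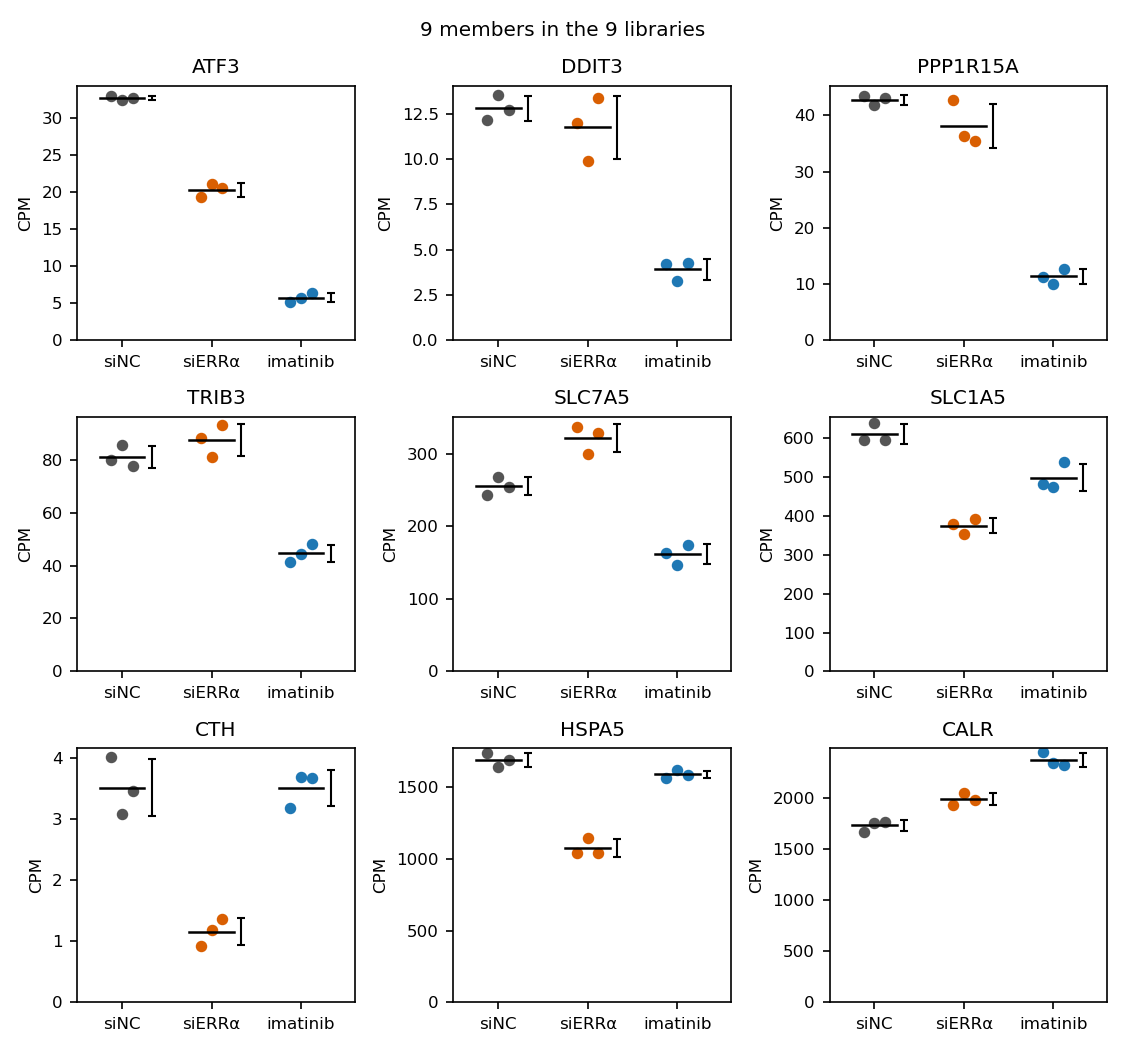
Level of 9 of the genes in CPM (y axis) by group (x axis). Points are the 3 libraries of a group, horizontal lines their mean and vertical bars the SD. For ATF3, DDIT3, PPP1R15A, TRIB3 and SLC7A5 the imatinib points lie lowest, and for SLC1A5, CTH and HSPA5 the siERRα points do.

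Amino acid synthesis genes did not move as a block with imatinib, where 4 of 10 fell and 3 rose. In the serine pathway, PHGDH, the first enzyme, rose (log2 fold change 0.32, SE 0.0616, adjusted p = 0.000402), and PSAT1, the transaminase of the next step, fell (log2 fold change −0.37, SE 0.0562, adjusted p = 2.8e-05). PSAT1 stood at 194, 196 and 194 CPM in siNC, 204, 217 and 202 CPM in siERRα and 140.2, 157 and 154 CPM with imatinib. The imatinib libraries lay under all others and the siERRα libraries above all siNC libraries, but the knockdown change did not pass (log2 fold change 0.09, SE 0.0559, adjusted p = 0.252). PSPH, the phosphatase of the last step, was not called with imatinib (log2 fold change 0.09, SE 0.0671, adjusted p = 0.306). It was called higher after knockdown (log2 fold change 0.19, SE 0.0666, adjusted p = 0.0462), and the call was lost in 8 of 9 fits that left out 1 library, all but the one without imatinib replicate 1, with an adjusted p of 0.0507 to 0.203. PHGDH gave a log2 change of 0.15 (SE 0.0615, adjusted p = 0.0954) after knockdown, which passed without siNC replicate 2 (adjusted p = 0.0229).

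Both enzymes of mitochondrial folate metabolism, SHMT2 and MTHFD2, were lower with imatinib, by 0.22 and 0.14 on the log2 scale. The MTHFD2 call was lost without siNC replicate 1, 2 or 3 or imatinib replicate 1 or 3 (adjusted p of 0.0574 to 0.115). After knockdown SHMT2 gave a log2 change of 0.14 (SE 0.0567, adjusted p = 0.0775), which passed without siNC replicate 2 or siERRα replicate 2 (adjusted p of 0.0359 and 0.0341), and MTHFD2 gave 0.05 (SE 0.051, adjusted p = 0.579). Both proline synthesis genes were higher with imatinib, ALDH18A1 by 0.20 and PYCR1 by 0.21 on the log2 scale. The PYCR1 call was lost without siNC replicate 1 or 3 or imatinib replicate 3 (adjusted p of 0.0897 to 0.13). ALDH18A1 was lower after knockdown (log2 fold change −0.17, SE 0.0505, adjusted p = 0.0172), a call lost without siNC replicate 1 or siERRα replicate 1 (adjusted p of 0.0631 and 0.0682). PYCR1 gave a log2 change of 0.12 (SE 0.0688, adjusted p = 0.243) after knockdown and passed without siERRα replicate 2 (adjusted p = 0.0372).

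CTH, the last enzyme of the transsulfuration route to cysteine (chromosome 1, 70411218 to 70439851), had the largest knockdown change of the 47. It stood at 4.005, 3.08 and 3.45 CPM in siNC, 0.922, 1.18 and 1.36 CPM in siERRα and 3.17, 3.69 and 3.66 CPM with imatinib. The siERRα libraries lay under all others, and the imatinib libraries lay within the siNC range. CTH fell to 32.9% of siNC after knockdown (log2 fold change −1.62, SE 0.171, adjusted p = 1.28e-06) and gave −0.00 (SE 0.153, adjusted p = 0.987) with imatinib. CBS, the enzyme of the step before it, was low and passed no comparison, with a log2 change of −0.27 (SE 0.187, adjusted p = 0.338) after knockdown. ASNS, subject to the overlap given above, gave a log2 change of −0.76 (SE 0.276, adjusted p = 0.0334) with imatinib, and its call was lost without siNC replicate 1, 2 or 3 or imatinib replicate 2 or 3 (adjusted p of 0.0569 to 0.148). After knockdown ASNS gave a log2 change of −0.20 (SE 0.253, adjusted p = 0.634).

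The amino acid transporters parted after knockdown, with SLC3A2 and SLC7A5 higher and SLC7A1 and SLC1A5 lower. SLC7A5, the light chain of the LAT1 exchanger that imports leucine and other large neutral amino acids, stood at 244, 269 and 255 CPM in siNC, 337, 299.9 and 328 CPM in siERRα and 163, 147 and 174 CPM with imatinib. SLC3A2, its heavy chain, stood at 264, 271 and 253 CPM in siNC, 301, 287 and 296 CPM in siERRα and 133, 123 and 144 CPM with imatinib. For both genes the groups did not overlap, with siERRα highest and imatinib lowest. SLC7A5 gave a log2 change of 0.33 (SE 0.0651, adjusted p = 0.000923) after knockdown and −0.66 (SE 0.0658, adjusted p = 1.81e-07) with imatinib. SLC3A2 gave a log2 change of 0.17 (SE 0.0591, adjusted p = 0.0471) after knockdown and −0.98 (SE 0.0602, adjusted p = 3.59e-10) with imatinib. The knockdown call of SLC3A2 was lost without siNC replicate 1, 2 or 3, siERRα replicate 1 or 3 or imatinib replicate 1 (adjusted p of 0.0619 to 0.245), while SLC7A5 passed in each fit that left out 1 library.

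SLC1A5 (ASCT2), an exchanger of glutamine and other neutral amino acids on chromosome 19 (46774883 to 46788594), stood at 596, 640.1 and 595 CPM in siNC, 379, 354 and 391 CPM in siERRα and 483, 475 and 537 CPM with imatinib. Every siERRα library was under every imatinib library, and these were under every siNC library. The log2 fold change was −0.70 (SE 0.0599, adjusted p = 7.3e-08) after knockdown and −0.29 (SE 0.0596, adjusted p = 0.000591) with imatinib. SLC7A1, a carrier of arginine and lysine, was lower after knockdown (log2 fold change −0.18, SE 0.0533, adjusted p = 0.0163), although not without siNC replicate 1 (adjusted p = 0.0518), and gave −0.09 (SE 0.0534, adjusted p = 0.178) with imatinib.

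Of the tRNA genes, WARS1, GARS1, SARS1 and XPOT fell with imatinib and AARS1 did not pass. WARS1, which charges tryptophan tRNA, stood at 215, 212 and 210.4 CPM in siNC, 263, 267 and 265 CPM in siERRα and 153, 155 and 168 CPM with imatinib. AARS1, which charges alanine tRNA, stood at 545, 559 and 555 CPM in siNC, 678, 695 and 686 CPM in siERRα and 571, 568 and 564 CPM with imatinib. In both, siERRα lay above all other libraries, and imatinib lay under siNC for WARS1 and slightly above it for AARS1. After knockdown WARS1 rose by 0.32 and AARS1 by 0.31 on the log2 scale (adjusted p of 0.000174 and 7.88e-05). With imatinib, WARS1 gave a log2 change of −0.42 (SE 0.0528, adjusted p = 3.01e-06) and AARS1 0.04 (SE 0.0476, adjusted p = 0.563). GARS1 and SARS1, for glycine and serine, and XPOT, the exportin that carries tRNA out of the nucleus, fell with imatinib by 0.33, 0.32 and 0.45 on the log2 scale. Their log2 fold changes after knockdown lay between −0.03 and 0.06 and did not pass.

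**Figure D4:**
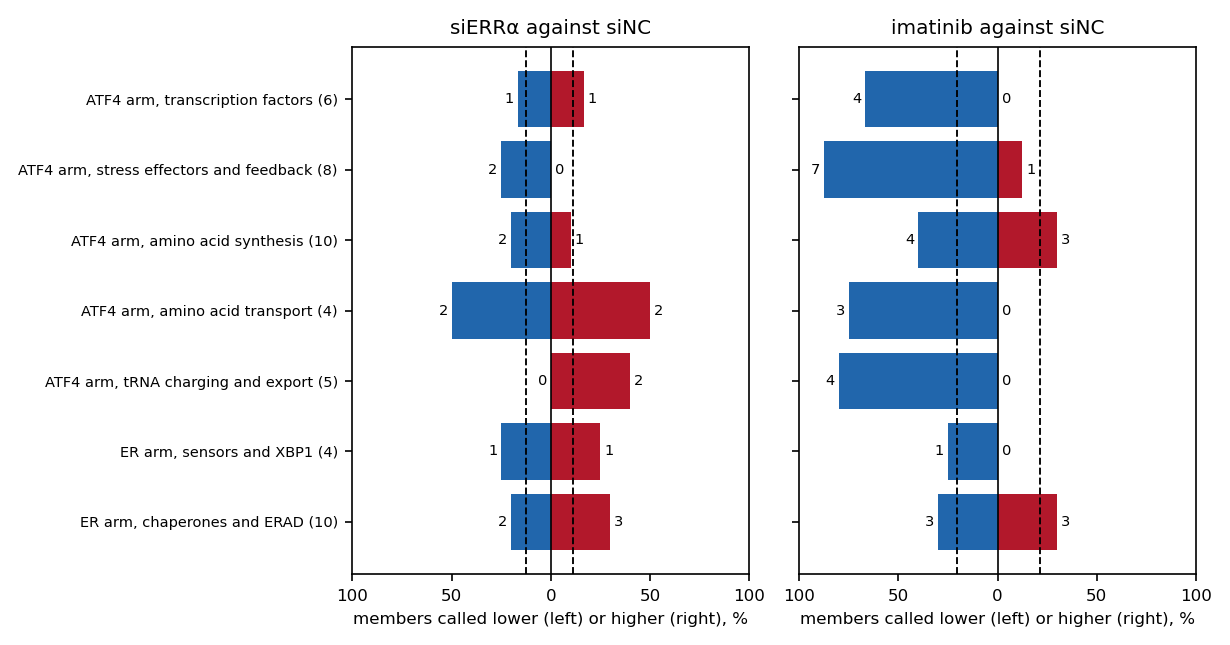
Share of the genes of each role (number in parentheses) called lower (left, blue) or higher (right, red) against siNC, with the number called beside each bar. Dashed lines mark the share of all 16976 genes tested, 12.6% and 11.4% for siERRα and 20.3% and 21.4% for imatinib. With imatinib the stress effectors, tRNA genes, transporters and transcription factors lie furthest beyond the line for lower genes.

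Promoters of the ATF4 arm were searched for the C/EBP-ATF response element (CARE), to which ATF4 dimers bind. The search covered 300 bases around a RefSeq start of each gene (250 before and 50 after, GRCh38.p14), which can lie inside the gene. The letters TGATGNAA on either strand were present in 9 of 29 ATF4-arm promoters (31.0%), 1 of 14 ER-arm promoters (7.14%) and 4.46% of 27305 promoters of all genes. For 4 genes, NUPR1, PSPH, PYCR1 and SHMT2, no promoter was given. The windows show the match in capitals, on the strand of the gene, for ASNS and for genes with large or opposite changes. ATF3 (chr1:212565206-212565233), SLC1A5 (chr19:46784894-46784921) and ASNS (chr7:97872459-97872486) hold the element in the direction of the gene, and CHAC1 (chr15:40953252-40953279), SLC3A2 (chr11:62881726-62881748) and AARS1 (chr16:70289676-70289703) in the opposite direction.
ATF3: aaggtcaggaTGATGGAAggctgtcata
SLC1A5: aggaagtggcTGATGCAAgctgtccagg
ASNS: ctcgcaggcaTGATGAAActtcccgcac
CHAC1: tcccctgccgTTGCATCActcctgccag
SLC3A2: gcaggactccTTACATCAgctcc
AARS1: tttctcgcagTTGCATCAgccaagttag

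The match lies 191 bases before the start of ATF3, 97 before that of SLC1A5 and 187 before that of AARS1, whereas in SLC3A2 it lies after the start. With imatinib, 7 of the 9 holders in the ATF4 arm, ASNS among them, were lower (median log2 fold change −0.38). Of the 20 without the element, 14 were lower and 3 higher (median −0.33). After knockdown 3 of the 9 holders, ATF3, SLC1A5 and SLC7A1, were lower and 2, SLC3A2 and AARS1, were higher. The ATF4 arm was listed as ATF4, its partners and its targets, so its share of holders describes the list and is no test. A match of letters is a description of the window and does not show that ATF4 was bound.

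Among the 3 sensor genes of the ER arm, ERN1 fell with imatinib, EIF2AK3 was lower after knockdown and ATF6 passed no comparison. ERN1, which encodes IRE1, stood at 12.6, 11.7 and 12.8 CPM in siNC, 14.1, 15.6 and 14.3 CPM in siERRα and 9.49, 8.03 and 7.35 CPM with imatinib. The imatinib libraries lay under siNC and the siERRα libraries above it. ERN1 fell with imatinib (log2 fold change −0.58, SE 0.0975, adjusted p = 9.88e-05). It gave a log2 change of 0.25 (SE 0.0922, adjusted p = 0.0588) after knockdown. This passed only without imatinib replicate 1 among the libraries left out (adjusted p = 0.0358), and in a fit of the 6 libraries compared (adjusted p = 0.0378). EIF2AK3, which encodes PERK, was lower after knockdown (log2 fold change −0.28, SE 0.0835, adjusted p = 0.0198), a call lost without siNC replicate 1 or 3 or siERRα replicate 1 or 3 (adjusted p of 0.0627 to 0.106). It gave a log2 change of −0.02 (SE 0.0835, adjusted p = 0.861) with imatinib. ATF6 passed no comparison, with a log2 change of 0.02 (SE 0.0583, adjusted p = 0.866) after knockdown and 0.06 (SE 0.0584, adjusted p = 0.433) with imatinib. XBP1 stood at 120.3, 112 and 114 CPM in siNC, 132, 140.3 and 131 CPM in siERRα and 101, 105 and 108 CPM with imatinib. Every siERRα library was above and every imatinib library under the siNC range, with a log2 change of 0.22 (SE 0.0557, adjusted p = 0.00667) after knockdown. With imatinib XBP1 gave a log2 change of −0.14 (SE 0.056, adjusted p = 0.053), which passed only without siNC replicate 2, siERRα replicate 2 or imatinib replicate 3 among the libraries left out (adjusted p of 0.0292 to 0.045).

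The ER chaperone genes did not move together in either comparison. HSPA5 (BiP), the main Hsp70 of the ER and the usual gauge of ER stress, stood at 1738, 1641 and 1692 CPM in siNC, 1041, 1149.9 and 1044 CPM in siERRα and 1568, 1619.6 and 1586 CPM with imatinib. The siERRα libraries lay under all others, and each imatinib library lay under each siNC library. HSPA5 fell to 63.8% of siNC after knockdown (log2 fold change −0.65, SE 0.0534, adjusted p = 5.01e-08) and gave −0.09 (SE 0.0532, adjusted p = 0.204) with imatinib. CALR (calreticulin), a lectin chaperone that also binds calcium, stood at 1668, 1759 and 1768 CPM in siNC, 1935, 2051 and 1985 CPM in siERRα and 2449.9, 2339.7 and 2327 CPM with imatinib. Here siNC was lowest and imatinib highest, with no overlap. CALR rose with imatinib (log2 fold change 0.45, SE 0.0509, adjusted p = 8.28e-07) and after knockdown (log2 fold change 0.20, SE 0.0508, adjusted p = 0.00664), the latter not without siNC replicate 1 (adjusted p = 0.051).

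PDIA4, a protein disulfide isomerase, stood at 559, 582 and 591 CPM in siNC, 618, 659 and 621 CPM in siERRα and 889.5, 858 and 814 CPM with imatinib. Each imatinib library was above every other library. With imatinib PDIA4 rose (log2 fold change 0.56, SE 0.0532, adjusted p = 9.3e-08), as did HSP90B1 (GRP94), the Hsp90 of the ER (log2 fold change 0.41, SE 0.0776, adjusted p = 0.000326). Neither passed after knockdown, with a log2 change of 0.13 (SE 0.0531, adjusted p = 0.0803) for PDIA4 and −0.02 (SE 0.0774, adjusted p = 0.871) for HSP90B1. SDF2L1, part of an ER chaperone complex, was higher after knockdown (log2 fold change 0.33, SE 0.0918, adjusted p = 0.0116), but not without siNC replicate 1 or 3 or siERRα replicate 1 or 3 (adjusted p of 0.0523 to 0.0714), and gave 0.03 (SE 0.0932, adjusted p = 0.857) with imatinib. Of the ER co-chaperones, DNAJC3 (p58IPK) fell with imatinib (log2 fold change −0.29, SE 0.0698, adjusted p = 0.00278) and gave 0.04 (SE 0.0694, adjusted p = 0.747) after knockdown, and DNAJB9 (ERdj4) passed no comparison.

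In ERAD, EDEM1, which passes misfolded glycoproteins on for disposal, fell in both comparisons, by 0.27 after knockdown and by 0.53 with imatinib on the log2 scale. SEL1L, the scaffold of the HRD1 ubiquitin ligase, stood at 154, 142 and 151 CPM in siNC, 176, 205 and 179.5 CPM in siERRα and 166, 166 and 153 CPM with imatinib. All siERRα libraries were above all siNC libraries, and imatinib overlapped siNC. SEL1L rose after knockdown (log2 fold change 0.33, SE 0.0638, adjusted p = 0.000889) and gave 0.12 (SE 0.0639, adjusted p = 0.147) with imatinib. HERPUD1, another membrane part of this machinery, fell with imatinib (log2 fold change −0.29, SE 0.0538, adjusted p = 0.000248). It gave a log2 change of −0.14 (SE 0.0535, adjusted p = 0.0724) after knockdown, which passed without siERRα replicate 2 or imatinib replicate 1 (adjusted p of 0.0456 and 0.0485).

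The same promoter windows were searched on both strands for the ER stress response element (ERSE), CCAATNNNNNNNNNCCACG, and for ERSE-II, ATTGGNCCACG, to which ATF6 or XBP1 bind. ERSE was present in 4 of 14 ER-arm promoters (28.6%), in none of 29 ATF4-arm promoters and in 0.0916% of all promoters. ERSE-II was present in 2 of 14 (14.3%), again in none of the 29, and in 0.0696% of all promoters. The ER arm was listed as genes downstream of XBP1 and ATF6, so these shares describe the list and are no test. A match of letters does not show that either factor was bound. The windows are shown because genes that share the element moved apart. They lie at chr9:125241386-125241414 for HSPA5, chr22:28800598-28800626 for XBP1, chr12:103930211-103930239 for HSP90B1 (which holds another copy), chr19:12938379-12938407 for CALR, chr16:56932016-56932044 for HERPUD1 and chr22:21642105-21642133 for SDF2L1. Capitals mark the element, which runs opposite to the gene in CALR and SDF2L1.
HSPA5: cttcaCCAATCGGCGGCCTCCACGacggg
XBP1: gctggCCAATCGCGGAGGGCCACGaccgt
HSP90B1: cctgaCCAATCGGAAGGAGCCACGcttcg
CALR: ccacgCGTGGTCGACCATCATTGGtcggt
HERPUD1: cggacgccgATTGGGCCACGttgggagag
SDF2L1: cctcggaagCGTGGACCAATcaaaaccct

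After knockdown, of the 4 ERSE genes HSPA5 fell, CALR and XBP1 rose and HSP90B1 did not pass. With imatinib, CALR and HSP90B1 rose and HSPA5 and XBP1 did not pass (adjusted p of 0.204 and 0.053). Of the ERSE-II genes, HERPUD1 fell with imatinib and SDF2L1 rose after knockdown. HERPUD1 also holds a CARE, at chr16:56931956-56931983, which does not overlap its ERSE-II.

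The direct comparison of siERRα with imatinib tests whether the effects differ, since both groups are set against the same controls. Of the 47 genes, 28 were higher and 10 lower in siERRα than with imatinib, where 25.6% of all genes were higher and 26.6% lower (52.2% called in all). In the ATF4 arm 21 of 33 were higher and 5 lower, with a median log2 difference of 0.33, and in the ER arm 7 of 14 were higher and 5 lower, with a median of 0.07. All 6 transcription factors and all 5 tRNA genes were higher in siERRα. The most frequent pattern, in 17 genes, was no call after knockdown, a fall with imatinib and a higher level in siERRα than with imatinib. These were 36.2% of the 47, and 11.6% of all genes tested had that pattern. It included ATF4, DDIT3, CEBPB, TRIB3, DDIT4, PPP1R15A, PSAT1, XPOT and ERN1.

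Furthest above imatinib were ATF3 (log2 fold change 1.82, SE 0.0872, adjusted p = 6.03e-12), PPP1R15A (log2 fold change 1.75, SE 0.0904, adjusted p = 1.63e-11) and DDIT3 (log2 fold change 1.58, SE 0.125, adjusted p = 4.23e-09). SLC3A2, SLC7A5 and WARS1 were called higher after knockdown, lower with imatinib and higher in siERRα than with imatinib, by 1.14, 0.99 and 0.74 on the log2 scale. Lower in siERRα were CTH (log2 fold change −1.61, SE 0.174, adjusted p = 2.71e-07), VLDLR (log2 fold change −1.54, SE 0.0977, adjusted p = 2.22e-10), HSPA5 (log2 fold change −0.56, SE 0.0534, adjusted p = 4.99e-08) and SLC1A5 (log2 fold change −0.41, SE 0.0598, adjusted p = 1.05e-05). The chaperone genes PDIA4, HSP90B1 and CALR were lower in siERRα as well, by 0.43, 0.43 and 0.25 on the log2 scale. ATF6, CBS and DNAJB9 passed in none of the 3 comparisons, with log2 differences between siERRα and imatinib of −0.04 ± 0.0584, −0.29 ± 0.191 and −0.02 ± 0.0782 (standard error). Calls that leaving out 1 library removed were those of CHAC1 (adjusted p of 0.0519 to 0.231 without siNC replicate 3, siERRα replicate 1 or any imatinib replicate), PHGDH (0.0544 to 0.0967 without siERRα replicate 1 or 2 or imatinib replicate 2 or 3) and EIF2AK3 (0.0573 and 0.0877 without siERRα replicate 3 or 1). SDF2L1 (0.0513 and 0.0761 without siERRα replicate 1 or imatinib replicate 1), HERPUD1 (0.0518 to 0.0583 without siERRα replicate 2 or imatinib replicate 1 or 3) and SEL1L (0.0597 and 0.062 without siERRα replicate 2 or imatinib replicate 3) lost theirs too. Without imatinib replicate 1 ASNS passed (adjusted p = 0.0333), and without imatinib replicate 2 SLC7A1 did (adjusted p = 0.0447).

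Other genes of the same pathways are set against the shares of all genes tested, of which 20.3% were lower and 21.4% higher with imatinib and 12.6% lower and 11.4% higher after knockdown. Of 16 further cytosolic tRNA synthetases, 13 were lower (81.2%) and 1 higher with imatinib, and 1 passed after knockdown, YARS1, which was higher. YARS1, for tyrosine, fell with imatinib by 0.55 and TARS1, for threonine, by 0.46 on the log2 scale, while QARS1, for glutamine, rose (log2 fold change 0.62, SE 0.0599, adjusted p = 1.28e-07). A list of 12 genes held those for eIF2, its kinases and its exchange factor eIF2B, and EIF2A, which encodes a separate initiation factor. Of these, 10 were lower and 2 higher with imatinib, and 1 was lower and 2 higher after knockdown. EIF2S1, which encodes eIF2α, was lower in both (log2 fold change −0.28, SE 0.0614, adjusted p = 0.00205 after knockdown, log2 fold change −0.41, SE 0.0617, adjusted p = 3.09e-05 with imatinib).

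Further ATF4 targets were mixed, and with imatinib more of them rose than fell, unlike the ATF4 arm. Of 12, 3 were lower and 7 higher (58.3%) with imatinib. Their median log2 fold change was 0.34, against −0.32 for the ATF4 arm. After knockdown 6 were lower (50.0%) and 3 higher. In siERRα against imatinib, 7 were lower and 2 higher, where 26.6% and 25.6% of all genes were. The median there was −0.44, against 0.33 for the ATF4 arm. GDF15 and SLC7A11 were among the 3 that fell with imatinib. GDF15, a stress-induced secreted factor, stood at 73.9, 79.5 and 75.1 CPM in siNC, 61.9, 52.9 and 52.8 CPM in siERRα and 7.70, 6.41 and 9.07 CPM with imatinib. Its groups did not overlap, and imatinib lay at 10.1% of siNC (log2 fold change −3.30, SE 0.101, adjusted p = 3.2e-14). After knockdown it gave a log2 change of −0.45 (SE 0.0853, adjusted p = 0.000723). SLC7A11, the light chain of the cystine importer xCT, stood at 30.5, 23.8 and 25.3 CPM in siNC, 48.7, 52.1 and 41.2 CPM in siERRα and 9.41, 9.81 and 9.29 CPM with imatinib. The siERRα libraries were highest and the imatinib libraries lowest, with a log2 change of 0.83 (SE 0.0929, adjusted p = 2.34e-06) after knockdown and −1.48 (SE 0.103, adjusted p = 1.81e-09) with imatinib. SLC1A4, a carrier of neutral amino acids, went the other way, with log2 fold changes of −0.33 after knockdown and 0.55 with imatinib. Of 24 further ER chaperone and ERAD genes, 10 rose (41.7%) and 4 fell (16.7%) with imatinib, where 21.4% and 20.3% of all genes did. After knockdown 11 of the 24 rose (45.8%) and 4 fell (16.7%), where 11.4% and 12.6% of all genes did. With imatinib OS9, a lectin of ERAD, rose (log2 fold change 1.65, SE 0.0712, adjusted p = 3.5e-12), as did the disulfide isomerase genes P4HB (log2 fold change 0.54) and PDIA3 (log2 fold change 0.54), while DNAJB11, a BiP co-chaperone, fell (log2 fold change −0.53, SE 0.0564, adjusted p = 4.37e-07). After knockdown SYVN1, which encodes the HRD1 ligase that SEL1L scaffolds, rose (log2 fold change 0.43, SE 0.0745, adjusted p = 0.000279). In the annotation, 2.37% of the SYVN1 exon bases lie in exons of FAU on the same strand and 6.48% opposite exons of MRPL49. CREB3L2 rose as well (log2 fold change 0.48, SE 0.0601, adjusted p = 8.12e-06), and MBTPS2 fell (log2 fold change −0.42, SE 0.063, adjusted p = 6.3e-05).

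Several genes that fell after knockdown share a short sequence in their 3' UTR. The 7 bases ATGTTCT had come up in earlier work on these same counts, where genes that hold it were lower after knockdown, so its counts are a description here and no test. In the canonical GENCODE 44 transcripts, 12 of the 47 genes held at least 1 copy on the sense strand (25.5%), beside 19.0% of 12736 genes tested with a 3' UTR. The holders had long 3' UTRs, with a median of 3999 bases against 843 for the 47 and 1397 for all, and the part of length in what follows was not tested. The sequences are the copies in CTH (chr1:70439404-70439410 and chr1:70439500-70439506, in exon 12), HSPA5 (chr9:125236326-125236332, in exon 8) and the first of 3 in VLDLR (chr9:2654822-2654828, in exon 19), with 11 bases on either side, since these 3 genes fell by 0.5 or more after knockdown. Capitals mark the 7 bases, and the coordinates are theirs on GRCh38.
CTH, upstream copy: tttgggagattATGTTCTtttttcatgtc
CTH, downstream copy: aatttaaacgaATGTTCTtaaatcaagtg
HSPA5: tcaccttcaaaATGTTCTatttaacaact
VLDLR: ctctgttttccATGTTCTgtcatttatat

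After knockdown, 6 of the 12 holders were lower and 1, SEL1L, was higher, with a median log2 fold change of −0.15. Of the 35 without a copy, 4 were lower and 9 higher, with a median of 0.05. DNAJC3, with 3 copies, gave a log2 change of 0.04 (SE 0.0694, adjusted p = 0.747) and ERN1, with 1 copy, 0.25 (SE 0.0922, adjusted p = 0.0588), so a copy did not go with a lower level in every gene. With imatinib 5 of the 12 holders were lower and 1 higher, against 21 and 6 of the 35. Over all genes with a 3' UTR, 733 of 2418 with a copy (30.3%) and 1235 of 10318 without were lower after knockdown, and 629 and 2369 with imatinib (26.0% and 23.0%). What links these 7 bases to lower levels after knockdown was not tested.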

How the data were processed

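Poly(A) RNA of the 9 libraries was sequenced in bulk. The deposited values are raw counts per gene symbol, which the authors made by aligning reads to GRCh38 with STAR 2.7.3a and counting with featureCounts 2.0.1, as the submitters' processing notes name them. Which annotation, strand setting and rule for reads that fit several genes were used is not given in the sources. A metadata table came with the counts, held labels only and was left out. Columns were assigned to groups through the S number shared with the labels. These numbers run from 1 to 6 for siNC and siERRα and from 16 to 18 for imatinib. Only the imatinib columns carry 48H in their names. Whether the imatinib libraries were handled apart from the others is not stated, and any such difference cannot be told apart from the drug.

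Counts were filtered with filterByExpr (minimum count 10, minimum total 15), normalized by TMM and fitted together over the 9 libraries in edgeR 4.0.16 (R 4.3.3). Groups were compared by its quasi-likelihood test with robust dispersions, and p-values were adjusted over 16976 genes after Benjamini and Hochberg. A gene was called at an adjusted p under 0.05. The standard error is the size of the log2 fold change over the square root of F. CPM values are normalized by TMM, SDs are over 3 libraries, and counts near 0 carry a large counting error. Replicate pairs differed by more than sampling noise (chi-square per degree of freedom 3.77 to 16.5).

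The 47 genes, the other lists and the 7-base sequence were chosen with earlier results of these data known. Every one of the 47 is reported, and of each other list the counts and some of the 4 genes with the smallest p. Gene models and 3' UTRs are from GENCODE 44, in which 60473 of the 61209 symbols have an entry. One copy of the 7-base sequence is not reported here by gene or position, although the counts include it. Promoters are from RefSeq (GRCh38.p14) and matched 43 of the 47 by symbol. The alternatives were DESeq2 size factors, the DESeq2 1.42.0 Wald test, limma-voom (limma 3.58.1), other filters, a fit of 6 libraries, counts thinned to the smallest total, a replicate block, a fold threshold and each library left out. Columns carry the numbers 1 to 3 within a group, but nothing says that they mark a shared culture. Tables and figures were made with Python 3.11.15, pandas 2.3.3, numpy 2.4.6 and matplotlib 3.10.9.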

Additional observations from a re-analysis of the deposited data

How the results depend on the processing

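None of 2592 values of single genes, over 18 settings and 3 comparisons, was a call that turned its direction. They kept their side of the threshold in 2410 cases, lost it in 147 and gained it in 35. The fold threshold is among these settings and relabels the main fit, so it could turn no direction. It gave 15 of the lost cases after knockdown, 21 with imatinib (ESRRA among them) and 25 in the direct comparison. A fold threshold of 0.5 on the log2 scale, added to the adjusted p, left 5 genes lower and 0 higher after knockdown, 11 lower and 2 higher with imatinib, and 3 lower and 10 higher in siERRα than with imatinib. With 1 library left out at a time, the counts ran from 7 to 12 lower and 5 to 11 higher after knockdown, 23 to 28 lower and 6 to 7 higher with imatinib, and 8 to 10 lower and 25 to 28 higher in siERRα than with imatinib. Under the other tools, scalings, filters and thinning they ran from 10 to 13 and 8 to 11, from 25 to 28 and 7 to 7, and from 10 to 10 and 26 to 28. Both scalings by DESeq2 size factors moved the median of all genes by less than 0.01. With the numbers 1 to 3 as a replicate block, 2 calls after knockdown were lost, those of PSPH (adjusted p = 0.074) and SLC3A2 (adjusted p = 0.075), as was that of MTHFD2 with imatinib (adjusted p = 0.0628). The correlation of same-numbered libraries, taken on their deviations from the group means, ran from −0.0996 to 0.147. With 3 libraries a group this cannot decide whether same-numbered libraries share a culture. Changes near 0.2 on the log2 scale were at the edge of what 3 libraries a group resolve.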
